A study of Mus musculus with 16 samples.

Results

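The genes described here are 6 Wnt ligands (Wnt4, Wnt5a, Wnt7a, Wnt7b, Wnt11 and Wnt16), the R-spondins Rspo1 and Rspo3, the R-spondin receptor gene Lgr5 and Axin2, a feedback inhibitor that canonical Wnt signalling itself switches on. They were taken by symbol from a table of 31274 features, and all 10 were found. RNA had been measured in the whole uterus of mice that were ovariectomized for 2 weeks and then given oil or progesterone (P4) for 6 h. The strains were PgrcrePgrALsL/+ (PRA here) and PgrcrePgrBLsL/+ (PRB here), and each strain had 4 oil libraries and 4 P4 libraries, named as biological replicates, 16 in all. The growth protocol has the females housed with littermates to 8 weeks of age. All 4 groups carry the Pgr-cre driver, whose recombinase is made in cells that use the Pgr promoter, together with an allele for receptor isoform A or B. A group without such an allele was not analysed here, so the strains are set against each other and each against its own oil group. One label field, that for treatment, instead describes mating and dissection on day 4 of pregnancy, against the ovariectomy and 6 h treatment that titles, characteristics and design give. The groups follow the latter.

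Wnt ligands are secreted glycoproteins that carry a lipid, added by the enzyme Porcn, and leave the cell with the carrier Wls. They bind Frizzled receptors, with Lrp5 or Lrp6 in the canonical branch, where beta-catenin (Ctnnb1) then accumulates and acts with TCF/LEF factors on target genes such as Axin2. R-spondins bind Lgr4, Lgr5 and Lgr6 and take the ubiquitin ligases Rnf43 and Znrf3, which remove Frizzled receptors, from the cell surface. In the mouse uterus Wnt7a is a gene of the luminal epithelium needed for gland formation, Wnt4 and Wnt5a act in the stroma and in the patterning of the tract, and Lgr5 has been used as an epithelial marker.

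Levels are FPKM, fragments scaled to transcript length and to library size, and differences are on the log2(FPKM + 1) scale, which understates the change of genes with low levels. A change is named a rise or a fall, and the gene called, where limma's moderated test over the 15408 features that averaged 1 FPKM or more gave a Benjamini-Hochberg adjusted p under 0.05. Every one of the 10 genes passed that level. The libraries held 499748 to 595748 FPKM in total, with 14807 to 15336 features at 1 FPKM or more. The library PRB P4 replicate 3 stood apart, with a root mean square deviation from its group of 0.359 on the log2 scale against 0.249 to 0.310 in the other libraries, and results that rest on it are given with and without it. Library codes in the samples' description labels carry the letter A for PRA and B for PRB, numbered with oil before P4 in each, so whatever the codes stand for cannot be told apart from strain or treatment. Pgr itself lay between 56.8 and 68.9 FPKM in PRA oil, 72.1 and 76.4 in PRA P4, 79.4 and 87.6 in PRB oil, and 78.5 and 126 in PRB P4, where replicate 3 was the lowest. With oil the PRB libraries lay above those of PRA without overlap, a difference of 0.36 that was not called (limma, adjusted p = 0.588) but was called without PRB P4 replicate 3 (0.36, adjusted p = 0.0214). With P4 it was higher in PRB by 0.57 (limma, adjusted p = 0.00575), and by 0.73 without that library. The response of Pgr to P4 was 0.19 in PRA (adjusted p = 0.171) and 0.39 in PRB (adjusted p = 0.00807), and without that library 0.19 (adjusted p = 0.00895) and 0.55 (adjusted p = 2.38e-06). The difference of these responses was 0.21 (limma, adjusted p = 0.583), and 0.37 and called without it (adjusted p = 0.0336). These values sum over isoforms, so endogenous and added receptor cannot be told apart.

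The 10 genes lie at 10 separate places in the genome (mm10 coordinates of GENCODE M21, whole protein-coding gene). Wnt7a spans chr6:91363981-91411363 on the minus strand and Wnt16 chr6:22288227-22298522 on the plus strand. Wnt4 spans chr4:137277489-137299726, Wnt5a chr14:28504750-28527448, Wnt11 chr7:98835112-98855195 and Wnt7b, on the minus strand, chr15:85535437-85582473. Rspo1 spans chr4:124986430-125009099, Rspo3, on the minus strand, chr10:29452416-29535867, Lgr5, on the minus strand, chr10:115450311-115587780 and Axin2 chr11:108920349-108950783. A further 2 measured features share bases with these genes on the opposite strand, AU022754 with Wnt7b and A930009A15Rik with Lgr5. Their means were 1.18 and 1.23 FPKM in PRA oil and 0.188 and 0.221 FPKM in PRA P4. The use of strand in the counting is not given in the sources used here, so reads of such pairs cannot be told apart.

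RefSeq's promoter table (GRCm38.p6) held 6 of the 10 genes, in 7 windows. The 250 bases before the start are printed for the ligand with the largest change among the 6 on the log2(FPKM + 1) scale (Wnt7a), for the ligand whose response differed between strains (Wnt16), and for the 2 windows in which a searched motif was found (Wnt11 and Axin2). Capitals mark a motif match. Searched on both strands were TGTTCT (a single arm of the steroid receptor element), the complete steroid receptor element, in which that arm follows its reverse complement after any 3 bases, and CTTTGA, the core recognised by TCF/LEF factors. Windows are Wnt7a chr6:91411354-91411603 on the minus strand, Wnt16 chr6:22287977-22288226, Wnt11 chr7:98834862-98835111 and Axin2 chr11:108920099-108920348, these 3 on the plus strand.
Wnt7a: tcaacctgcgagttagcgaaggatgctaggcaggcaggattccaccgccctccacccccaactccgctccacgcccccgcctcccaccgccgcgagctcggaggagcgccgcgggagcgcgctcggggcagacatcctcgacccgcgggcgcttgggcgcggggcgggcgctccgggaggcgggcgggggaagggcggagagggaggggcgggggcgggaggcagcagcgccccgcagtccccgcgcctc
Wnt16: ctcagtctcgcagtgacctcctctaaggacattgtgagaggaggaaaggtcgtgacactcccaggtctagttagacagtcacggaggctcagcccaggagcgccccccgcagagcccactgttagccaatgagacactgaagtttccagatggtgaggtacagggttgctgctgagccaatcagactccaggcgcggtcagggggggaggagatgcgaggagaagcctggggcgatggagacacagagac
Wnt11: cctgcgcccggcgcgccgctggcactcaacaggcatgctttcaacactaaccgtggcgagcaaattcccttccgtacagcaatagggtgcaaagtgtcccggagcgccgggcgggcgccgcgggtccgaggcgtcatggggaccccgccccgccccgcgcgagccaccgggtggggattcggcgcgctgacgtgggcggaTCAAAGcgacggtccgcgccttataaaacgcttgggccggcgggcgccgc
Axin2: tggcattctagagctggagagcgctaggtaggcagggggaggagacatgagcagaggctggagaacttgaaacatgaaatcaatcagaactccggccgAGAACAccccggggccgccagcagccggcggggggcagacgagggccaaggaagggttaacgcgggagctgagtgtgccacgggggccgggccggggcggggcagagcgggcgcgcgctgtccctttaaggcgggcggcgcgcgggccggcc
The first of 2 Wnt11 windows held the TCF/LEF core in reverse, 50 bases before the start, and the Axin2 window held the single arm in reverse, 152 bases before the start. The windows of Wnt7a, Wnt16, Wnt4 and Rspo1 held none of the 3 motifs. Among 32536 windows of that length, 16.03% held the arm, 13.9% the TCF/LEF core and 3 windows the complete element, so neither match is rare. All 7 windows were richer in G and C than the median window (52.4%), from 56.8% in the second Wnt11 window to 85.2% in that of Wnt4.

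With oil, a ligand, an R-spondin and the feedback gene were the most abundant of the 10. Rspo3, Wnt7a and Axin2 led in both strains, with means of 81.7 ± 11.2, 77.3 ± 15.1 and 57.5 ± 8.17 FPKM in PRA and 73.6 ± 14.6, 71.8 ± 11.9 and 60.4 ± 3.32 FPKM in PRB (SD, n = 4). The ranges of these 3 overlapped from neighbour to neighbour. Wnt5a and Rspo1 formed the next pair, at 40.5 ± 4.44 and 40.3 ± 5.53 FPKM in PRA, and did not overlap with Axin2 above them or Lgr5 below. Lgr5, Wnt4, Wnt11 and Wnt16 ran into each other between 25.1 and 17.0 FPKM in PRA oil, and Wnt7b was lowest at 3.24 ± 1.09 FPKM. With P4 the order changed. Wnt5a led in PRA P4 (49.8 ± 0.946 FPKM), above the range of every other gene of the group, and in PRB P4 (38.1 ± 1.87 FPKM), where a single library of Rspo3 (36.3 FPKM) reached its lowest value (36.2 FPKM). Axin2, Rspo3, Wnt7a, Rspo1, Wnt11, Wnt4, Lgr5 and Wnt16 then followed, with Rspo1 and Wnt11 before Wnt7a in PRB, between 31.3 and 10.6 FPKM in PRA and between 28.5 and 5.30 FPKM in PRB, each overlapping its neighbour, and Wnt7b was again lowest.

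**Figure D1:**
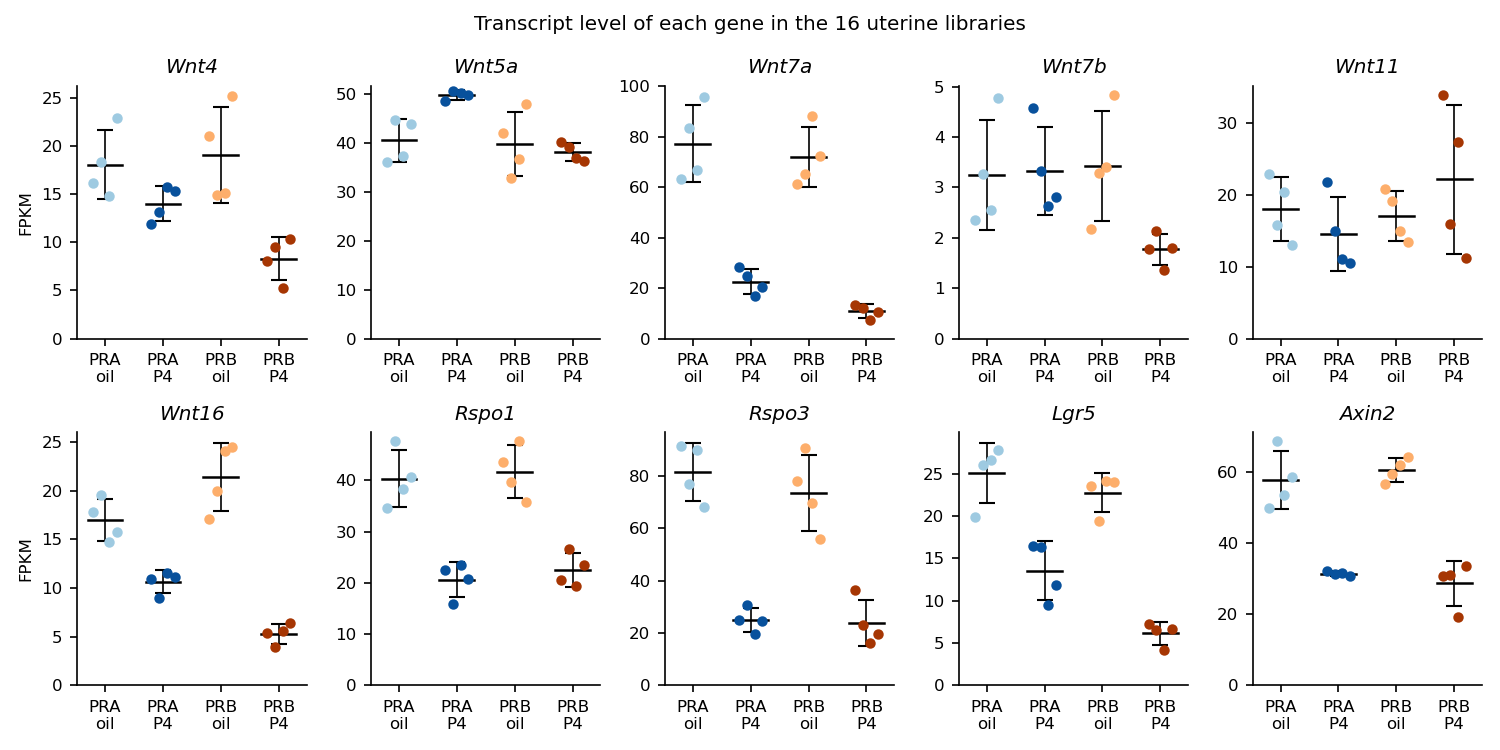
Level of each of the 10 genes (FPKM, linear axis from 0, a separate scale for each gene) in the 4 groups. Points are libraries, and lines and bars are the mean and SD of 4. Wnt7a, Rspo3, Rspo1, Lgr5, Wnt16 and Axin2 have P4 points below all oil points in both strains, whereas Wnt5a in PRA has P4 points above them.

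The first comparison asked how P4 had changed these genes in the PRA uterus. Of the 10 genes 6 fell (Wnt7a, Rspo3, Rspo1, Lgr5, Axin2 and Wnt16), Wnt5a rose, and Wnt4, Wnt7b and Wnt11 were not called. The 7 called genes had no overlap between oil and P4 libraries. In this contrast 69.8% of all features tested were called, 36.6% higher and 33.2% lower, and 35% lay higher and 31.2% lower without overlap, so a call by itself sets none of these genes apart. The median difference over the 10 genes was -0.74, and over all features tested it was 0.01. The same comparison in PRB drew on separate libraries. There 8 of the 10 fell, the 6 named above with Wnt4 and Wnt7b, and none rose, against 69.1% of all features called (36.2% higher, 32.9% lower) and medians of -1.10 over the 10 genes and 0 over all features. All 8 were without overlap between oil and P4, as were 32.6% of all features on the higher side and 28.5% on the lower.

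Among the 6 ligands, Wnt7a changed most on the log2(FPKM + 1) scale. Its 4 PRA libraries held 63.3, 83.5, 66.7 and 95.7 FPKM with oil and 28.3, 24.7, 16.8 and 20.5 FPKM with P4. In PRB the values were 61.4, 65.2, 88.2 and 72.4 FPKM with oil and 13.5, 12.0, 7.27 and 10.7 FPKM with P4. The P4 libraries of PRB all lay below those of PRA, which in turn lay far below every oil library. Wnt7a thus fell to 29.2% of its oil mean in PRA (log2 difference -1.74, SE 0.19, limma, adjusted p = 1.46e-06) and to 15.1% in PRB (-2.64, SE 0.19, adjusted p = 2.05e-08). Markers of the epithelium, where this ligand is known to be made, did not fall in sum. The 12 epithelial markers, all above 0, summed to 950 to 1075 FPKM in PRA oil and 1115 to 1409 FPKM in PRA P4, and to 985 to 1056 FPKM in PRB oil and 1401 to 1721 FPKM in PRB P4. Of them 4 rose and 4 fell in PRA, and 4 rose and 2 fell in PRB. In whole tissue, fewer cells of a type and less RNA per cell cannot be told apart.

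Wnt16, a ligand with roles in bone and in the embryo, fell in both strains. PRA libraries gave 17.9, 19.6, 14.8 and 15.7 FPKM with oil and 10.9, 8.92, 11.6 and 11.1 FPKM with P4. PRB libraries gave 17.1, 19.97, 24.1 and 24.5 FPKM with oil and 5.36, 3.89, 5.56 and 6.37 FPKM with P4. All 4 groups were separate except the 2 oil groups, with PRB P4 lowest. The remaining level was 62.6% of the oil mean in PRA (-0.63, SE 0.14, limma, adjusted p = 0.000872) and 24.7% in PRB (-1.84, SE 0.14, adjusted p = 2.57e-08).

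Wnt4, a stromal regulator of decidualization, was called in PRB and not in PRA. In PRB its levels were 21.1, 14.96, 15.1 and 25.3 FPKM with oil and 8.07, 9.52, 5.28 and 10.3 FPKM with P4, a fall of 1.11 in log2 units (SE 0.20, limma, adjusted p = 0.000155). In PRA they were 16.1, 18.4, 14.8 and 23.0 FPKM with oil and 11.9, 13.1, 15.7 and 15.3 FPKM with P4, ranges that overlapped. The PRA difference of -0.33 had a 95% interval from -0.76 to 0.09 (adjusted p = 0.147), and the test of the difference between strains is given further on. The 10 stromal markers, none at 0, summed to 1220 to 1335 FPKM in PRA oil and 1090 to 1299 FPKM in PRA P4, and to 1292 to 1497 and 1205 to 1325 FPKM in PRB. Of them 6 rose and 3 fell in PRA, and 5 rose and 3 fell in PRB, and their part in the fall of Wnt4 was not tested.

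Wnt5a, a ligand of the non-canonical branch, was the only one of the 10 that rose. PRA libraries held 36.1, 44.8, 37.4 and 43.8 FPKM with oil and 48.5, 50.7, 50.3 and 49.8 FPKM with P4, a difference of 0.30 (SE 0.10, limma, adjusted p = 0.0132). The P4 values lay closer together than in any other group of this gene. In PRB the values were 42.0, 32.8, 36.6 and 47.9 FPKM with oil and 40.2, 39.2, 36.9 and 36.2 FPKM with P4, within the oil range (-0.05, 95% interval -0.26 to 0.16, adjusted p = 0.680). After quantile normalization the PRA difference was 0.12 and not called (adjusted p = 0.314), while that in PRB was -0.25 and called (adjusted p = 0.0394).

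Wnt7b and Wnt11 were the least steady ligands. Wnt7b was weakly expressed, at 2.36 to 4.77 FPKM with oil and 2.62 to 4.57 FPKM with P4 in PRA, where its difference was 0.04 (adjusted p = 0.859). In PRB it stood at 2.18, 3.28, 3.41 and 4.84 FPKM with oil and 1.78, 2.13, 1.37 and 1.797 FPKM with P4, each below the oil range, and fell by 0.65 in log2 units (SE 0.20, limma, adjusted p = 0.00922). That call was lost after quantile normalization (-0.39, adjusted p = 0.0913). Wnt11 had no call in any comparison, and the ranges of its 4 groups all overlapped. In every group its highest value was in replicate 1 and its lowest in replicate 4. In PRB P4 it ranged over 33.9, 15.96, 27.4 and 11.3 FPKM, against 13.4 to 20.9 FPKM with oil (0.26, 95% interval -0.40 to 0.91, adjusted p = 0.471). In PRA it lay between 13.0 and 22.9 FPKM with oil and between 10.5 and 21.7 FPKM with P4 (-0.31, 95% interval -0.97 to 0.34, adjusted p = 0.373).

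The ligand mixture shifted with these changes. Among the 19 Wnt genes measured, 11 reached a mean of 1 FPKM, and the other 8 stayed below it, though none was at 0 in every library. Summed over the 19, the ligands came to 229 ± 29.3 FPKM in PRA oil and 141 ± 8.97 FPKM in PRA P4, and to 231 ± 22.4 FPKM in PRB oil and 113 ± 13.0 FPKM in PRB P4 (SD, n = 4). The sums with oil ranged from 203 to 258 FPKM and those with P4 from 102 to 154 FPKM, without overlap. Wnt7a held 33.6% of the sum in PRA oil and 15.9% in PRA P4, and 31.1% and 9.57% in PRB. Wnt5a held 17.7% and 35.4% in PRA, and 17.2% and 34.0% in PRB. With P4 the largest share had thus passed from Wnt7a to Wnt5a in both strains. In PRB P4, Wnt11 came next with 19.2%, although its libraries differed widely. These shares come from the same libraries as the differences above and are given without a test.

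**Figure D2:**
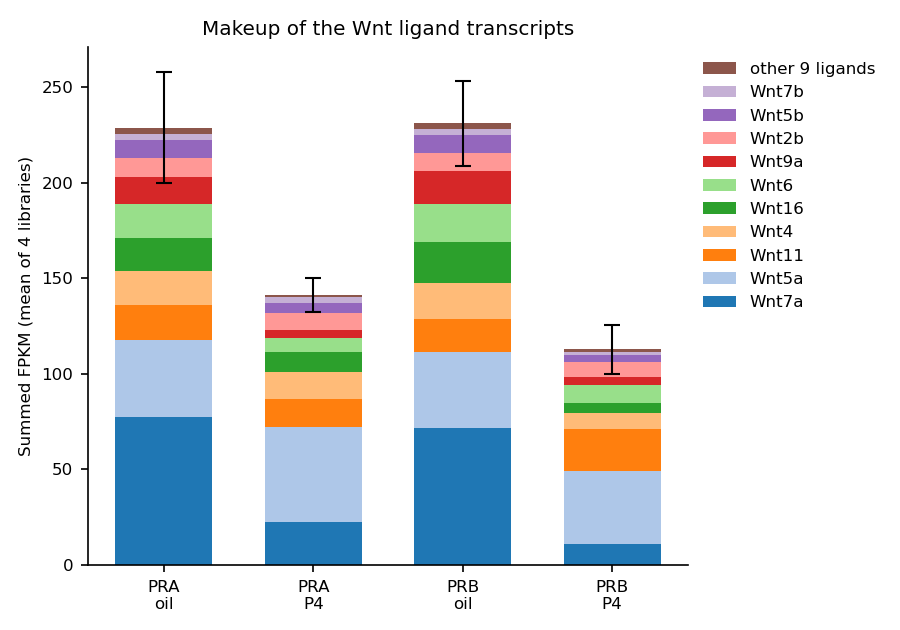
Makeup of the Wnt ligand transcripts, as the mean FPKM of each ligand stacked to the group sum (linear axis from 0), with bars for the SD of the sum over 4 libraries. The sums are 229 and 231 FPKM with oil and 141 and 113 FPKM with P4 in PRA and PRB, and the lowest block, Wnt7a, shrinks most.

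Both R-spondins fell in both strains. Rspo3, which is known as a stromal and smooth muscle product in several organs, held 91.6, 76.9, 90.2 and 68.2 FPKM in PRA oil and 25.1, 30.7, 19.6 and 24.4 FPKM in PRA P4. In PRB it held 78.1, 90.7, 69.7 and 55.9 FPKM with oil and 36.3, 22.9, 16.1 and 19.4 FPKM with P4. Every P4 library lay below every oil library of either strain. The fall was 1.68 in log2 units in PRA (SE 0.21, limma, adjusted p = 5.47e-06) and 1.64 in PRB (SE 0.21, adjusted p = 7.17e-06), leaving 30.5% and 32.2% of the oil means. The PRB P4 library with the highest Rspo3, replicate 1, also had the highest summed smooth muscle markers of its group (1886 FPKM, against 1124 to 1393 FPKM in the other 3). Across the 16 libraries the deviations of Rspo3 and of that marker sum from their group means had r = 0.751, as a description of libraries that share depth and dissection. With the summed stromal markers the value for Rspo3 was -0.517. Rspo1 with mesothelial markers (0.754) and Axin2 with leukocyte markers (-0.855) had values at least as large in size. PRB P4 replicate 3 had the lowest Axin2 (19.1 FPKM) and the highest leukocyte sum (42.7 FPKM) of its group. These r values were not computed without that library. The smooth muscle sums themselves overlapped between oil and P4 (1336 to 1682 and 1314 to 1811 FPKM in PRA, 1225 to 1597 and 1124 to 1886 FPKM in PRB), with 2 of 8 markers higher and 1 lower in PRA, and 1 higher and 2 lower in PRB. None of the 8 was at 0, and the part of muscle content in the fall of Rspo3 was not tested.

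Rspo1, which is known for its part in female gonad development, fell from 40.3 ± 5.53 to 20.6 ± 3.41 FPKM in PRA and from 41.7 ± 5.17 to 22.5 ± 3.27 FPKM in PRB (SD, n = 4). Its PRA values were 34.7, 47.7, 38.3 and 40.6 FPKM with oil and 22.5, 15.8, 23.4 and 20.6 FPKM with P4 (-0.94, SE 0.13, limma, adjusted p = 1.82e-05). In PRB they were 43.6, 39.6, 47.7 and 35.7 FPKM with oil and 20.4, 26.6, 19.4 and 23.5 FPKM with P4 (-0.86, SE 0.13, adjusted p = 4.36e-05). Oil and P4 libraries did not overlap, and the remaining level was 51.1% in PRA and 54.0% in PRB. Markers of the mesothelium were lower with P4 in sum, at 141 to 156 FPKM in PRA oil and 76.4 to 114 FPKM in PRA P4, with 3 of 5 called lower. In PRB the sums were 123 to 183 and 103 to 125 FPKM, with 1 of 5 called lower and none of the 5 at 0 in either strain. Their part in the fall of Rspo1 was not tested.

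Lgr5, the R-spondin receptor that marks stem cells of the gut and hair follicle, fell in both strains. PRA libraries held 19.9, 26.0, 26.7 and 27.9 FPKM with oil and 16.5, 16.4, 9.45 and 11.8 FPKM with P4. PRB libraries held 23.6, 19.4, 24.1 and 24.05 FPKM with oil and 7.19, 6.46, 4.11 and 6.68 FPKM with P4. The order of the groups was the same as for Wnt7a, with PRB P4 lowest and no overlap with PRA P4. The level that remained was 53.9% of oil in PRA (-0.87, SE 0.18, limma, adjusted p = 0.000491) and 26.8% in PRB (-1.76, SE 0.18, adjusted p = 5.39e-07). Gland markers, of which Prss29 was at 0 in 3 groups, were higher with P4 in sum, from 148 to 181 FPKM up to 209 to 267 FPKM in PRA and from 168 to 204 FPKM up to 258 to 305 FPKM in PRB. Sox17 held most of that sum, with a mean of 149.8 FPKM in PRA oil. Of 4 tested gland markers 1 rose in PRA (Sox17) and 2 in PRB (Sox17 and Spink3), and none fell. Spink3 varied widely in PRB P4, from 0.997 to 66.0 FPKM, against 0 to 0.252 FPKM in PRB oil. In PRB the means of Foxa2 and Cxcl15 were lower with P4, at 7.58 against 8.34 FPKM and 7.20 against 10.8 FPKM, and neither difference was called (limma, adjusted p = 0.743 and 0.379). Their part in the fall of Lgr5 was not tested.

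Axin2, the feedback gene, fell in both strains. PRA libraries gave 49.7, 68.5, 53.5 and 58.5 FPKM with oil and 32.1, 31.3, 31.5 and 30.5 FPKM with P4. PRB libraries gave 56.5, 59.3, 61.9 and 64.2 FPKM with oil and 30.5, 31.0, 19.1 and 33.5 FPKM with P4. Of the 8 P4 libraries 7 lay within 30.5 to 33.5 FPKM, and PRB P4 replicate 3 lay apart at 19.1 FPKM. That library also had the highest summed leukocyte markers of its group, at 42.7 FPKM against 25.01 to 29.8 FPKM, the lowest smooth muscle sum (1124 FPKM) and the highest epithelial sum (1721 FPKM). Axin2 fell by 0.85 in log2 units in PRA (SE 0.14, limma, adjusted p = 5.86e-05) and by 1.08 in PRB (SE 0.14, adjusted p = 5.22e-06). Without PRB P4 replicate 3 the fall in PRB was 0.91 (adjusted p = 4.49e-07).

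**Figure D3:**
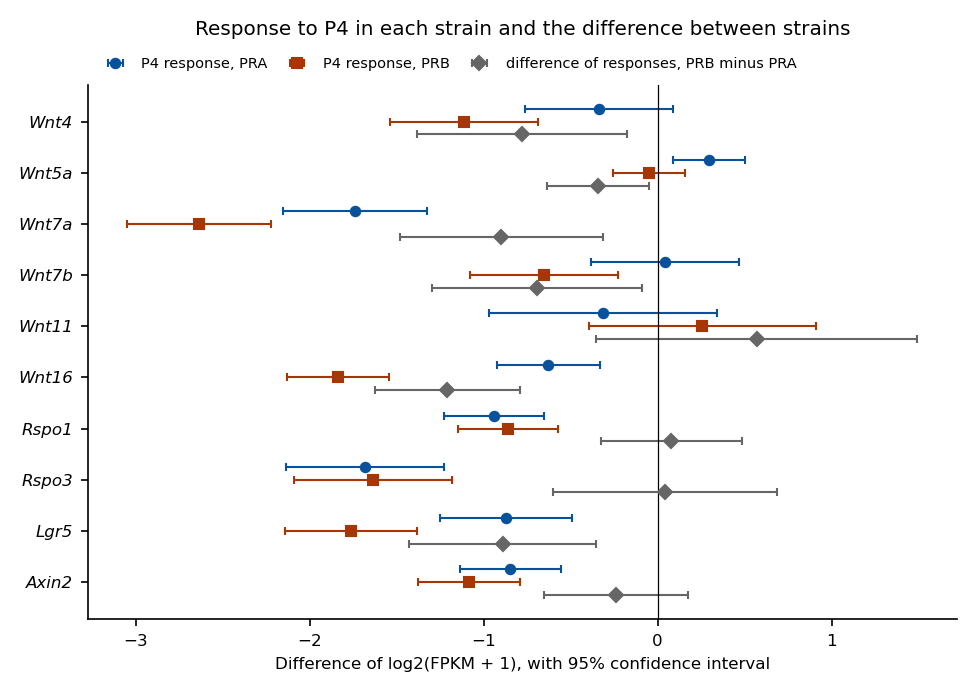
Difference of log2(FPKM + 1) between P4 and oil in PRA (circles) and PRB (squares), and PRB response minus PRA response (diamonds), with 95% confidence intervals from the fit. Wnt7a has the lowest responses (-1.74 and -2.64), and the diamond of Wnt16 (-1.21) is the only one called over all features.

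The next comparisons set the strains, which carry alleles for different receptor isoforms, against each other. Pgr transcript itself was higher in PRB with P4 (0.57), so isoform and receptor amount cannot be told apart. With oil, none of the 10 genes was called between the strains (differences from -0.16 to 0.31, adjusted p from 0.918 to 1), against 0.117% of all features (0.0389% higher, 0.0779% lower), 18 in number by limma, with 802 features at an unadjusted p under 0.05. Wnt16 had the difference of 0.31, higher in PRB (limma, adjusted p = 0.918). All 10 genes overlapped between the oil groups, where 1.25% of all features lay higher and 2.14% lower in PRB without overlap. The intervals still allow differences as wide as -0.61 to 0.29 for Rspo3 and -0.71 to 0.59 for Wnt11.

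With P4, 6 of the 10 genes were lower in PRB than in PRA, all without overlap, and none was higher, against 16% of all features called (7.75% higher, 8.29% lower) and 9.23% and 10.9% higher and lower without overlap. They were Lgr5 (-1.02, SE 0.18, limma, adjusted p = 0.00199), Wnt7a (-0.997, SE 0.19, 0.00382), Wnt16 (-0.90, SE 0.14, 0.000920), Wnt4 (-0.72, SE 0.20, 0.0256), Wnt7b (-0.63, SE 0.20, 0.0441) and Wnt5a (-0.38, SE 0.10, 0.0178). The ligand group thus differed in 5 of 6 genes. Without PRB P4 replicate 3 the number was 4, since Wnt4 (-0.54, adjusted p = 0.0562) and Wnt7b (-0.56, adjusted p = 0.0918) were no longer called. The call of Wnt4 was also lost without PRA P4 replicate 2, 3 or 4, and that of Wnt7b in 12 of 24 alternatives. Rspo1 (0.13, 95% interval -0.16 to 0.41), Rspo3 (-0.12, -0.57 to 0.34), Axin2 (-0.16, -0.45 to 0.13) and Wnt11 (0.51, -0.14 to 1.16) were not called. For Rspo3 and Axin2 the sign turned without PRB P4 replicate 3 (0.04 and 0.01). The medians were -0.50 over the 10 genes and -0.01 over all features. The P4 libraries in this comparison are those of the responses above, so the 2 sets of values are not independent. Endothelial markers were also higher in PRB P4 (233 to 246 FPKM in sum) than in PRA P4 (164 to 206 FPKM), with 4 of 8 called higher and none at 0. Their part in these differences was not tested.

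The direct test of a strain-dependent response, the PRB difference minus the PRA difference, called 1 of the 10 genes, against 2.28% of all features (1.47% higher, 0.811% lower). This gene was Wnt16, at -1.21 (SE 0.19, 95% interval -1.62 to -0.79, limma, adjusted p = 0.00617), and it was called in all 24 alternatives, with adjusted p from 0.00480 to 0.0178. Lgr5 (-0.89, adjusted p = 0.0805) and Wnt7a (-0.90, adjusted p = 0.106) had differences of the same sign that were not called over all features, with 95% intervals of -1.43 to -0.35 and -1.48 to -0.31. Without PRA P4 replicate 3, Lgr5 was called as well (-1.04, adjusted p = 0.0393). Wnt4 (-0.78, 0.174), Wnt7b (-0.69, 0.230), Wnt5a (-0.35, 0.220), Axin2 (-0.24, 0.584) and Wnt11 (0.57, 0.552) had adjusted p further from the threshold. The R-spondins had the smallest differences, 0.08 for Rspo1 (95% interval -0.33 to 0.49) and 0.04 for Rspo3 (-0.60 to 0.68), so a difference of that width remains possible.

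Other genes of the pathway were followed in lists by role, 93 genes in all, of which 73 were tested. With P4, 15 of the 73 rose and 29 fell in PRA, where 36.6% of all features tested rose and 33.2% fell. In PRB 15 rose and 39 fell, where 36.2% of all features rose and 32.9% fell. Leaving out PRB P4 replicate 3 gave 15 rises and 31 falls in PRA and 14 and 36 in PRB. The median difference was -0.10 in PRA and -0.38 in PRB, beside 0.01 and 0 over all features. These shares apply to each list below, and nothing is read from a list whose share lies near them. With oil no gene of the lists was called between strains, against 0.117% of all features. With P4, 2 were higher and 12 lower in PRB, against 7.75% and 8.29% of all features. Without PRB P4 replicate 3 the latter counts were 4 and 9.

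Of the other 13 Wnt genes 5 were tested, and 4 of these fell in both strains, where 33.2% and 32.9% of all features fell. Wnt9a fell from 13.9 ± 5.60 to 3.94 ± 0.568 FPKM in PRA (SD, n = 4) and by 1.52 and 1.78 on the log2 scale in PRA and PRB. Wnt6 fell by 1.19 and 0.96, Wnt5b by 0.81 and 1.27, and Wnt2, at 2.25 ± 0.370 FPKM in PRA oil, by 1.35 and 0.76. At such low levels this scale understates the change. Wnt2 was at 0.273 FPKM in PRA P4 and 0.566 FPKM in PRB P4, or 12.1% and 34.0% of its oil means. Both export genes fell as well. Wls, the carrier, went from 132 ± 13.9 to 70.2 ± 3.21 FPKM in PRA (log2 difference -0.90, SE 0.08, limma, adjusted p = 8.26e-08) and from 124 ± 9.30 to 67.0 ± 4.59 FPKM in PRB (-0.87, adjusted p = 1.10e-07). Porcn, the acyltransferase, fell by 1.13 in PRA and 0.69 in PRB. None of these genes was called between the strains with P4.

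Of the remaining R-spondin system, 4 of 6 genes were tested. Rnf43, which removes Frizzled receptors and is itself a target of the pathway, fell by 0.63 in PRA and by 1.28 in PRB, where it went from 31.7 ± 3.93 to 12.7 ± 2.97 FPKM (SD, n = 4). Its partner Znrf3 fell by 0.38 in PRB, and in PRA the difference was -0.16 (adjusted p = 0.0688), which was called without PRB P4 replicate 3. The receptors related to Lgr5 went the other way where they were called. Lgr6 rose by 0.58 in PRA, to 1.94 ± 0.319 FPKM, and Lgr4 rose by 0.30 in PRB. In PRB the Lgr6 difference was 0.32 (limma, adjusted p = 0.0654), and it was called as well without PRB P4 replicate 3.

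Of 15 receptor genes tested, 3 rose and 6 fell in PRA, and 3 rose and 7 fell in PRB, against 36.6% higher and 33.2% lower over all features in PRA and 36.2% and 32.9% in PRB. With PRB P4 replicate 3 left out, 2 rose and 7 fell in PRB. Fzd10, a Frizzled receptor, fell from 82.7 ± 18.0 to 15.8 ± 2.27 FPKM in PRA (-2.31, SE 0.21, limma, adjusted p = 1.80e-07) and from 71.3 ± 14.2 to 9.78 ± 2.86 FPKM in PRB (-2.77, SE 0.21, adjusted p = 2.76e-08). Fzd7 fell by 0.62 and 0.99. Fzd1 rose instead, by 0.42 in PRA and by 1.04 in PRB, where it reached 111 ± 26.2 FPKM against 59.4 ± 5.85 FPKM in PRA P4 (SD, n = 4). Fzd1 was therefore higher in PRB with P4, by 0.86 (SE 0.15, limma, adjusted p = 0.00197), the opposite direction to Lgr5 and Wnt7a. Its rise in PRA was not called in 4 of 25 alternatives, among them quantile normalization (0.21, adjusted p = 0.229). Ror1 and Ror2, receptors for Wnt5a, fell in PRB (-0.52 and -0.83), were not called in PRA (0.14 and -0.24) and were lower in PRB than in PRA with P4 (-0.56 and -0.54), while the differences of responses were not called (adjusted p = 0.110 and 0.120). Fzd5 was lower in PRB with P4 by 0.50 (adjusted p = 0.00541). Fzd10 and Fzd7 were lower in PRB with P4 as well, by 0.67 and 0.37, but without PRB P4 replicate 3 neither was called (-0.46 and -0.29, adjusted p = 0.0886 and 0.0891).

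Of 11 secreted and surface inhibitors tested, 1 rose and 6 fell in PRA (all features, 36.6% and 33.2%), and 2 rose and 9 fell in PRB (36.2% and 32.9%). With PRB P4 replicate 3 left out, 1 rose and 7 fell in PRA, and 1 rose and 8 fell in PRB. Wif1, which binds Wnt proteins, fell by 1.83 in PRA and 2.65 in PRB, from oil levels that varied widely (9.70 ± 7.30 and 12.5 ± 6.65 FPKM, SD, n = 4). Tpbg, a membrane protein that dampens canonical signalling, fell by 1.46 and 1.73, and Dkk3 by 0.66 and 0.81. Notum, the enzyme that strips the lipid from Wnt proteins, fell from 24.3 ± 4.75 to 5.33 ± 2.74 FPKM in PRB (-2.14, SE 0.39, limma, adjusted p = 0.000174), and in PRA the difference of -0.74 was not called (adjusted p = 0.104). Without PRB P4 replicate 3, in which Notum was at 1.22 FPKM, the PRA difference was called (adjusted p = 0.0228), whereas the difference between the strains with P4 went from -1.24 (adjusted p = 0.0427) to -0.79 (adjusted p = 0.0734). Apcdd1, a membrane inhibitor and target of the pathway, fell by 0.76 in PRA and by 1.46 in PRB. Sfrp2, a secreted decoy, rose by 0.54 in PRA and by 0.26 in PRB, and the PRB rise was lost in 12 of 25 alternatives.

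Of 21 intracellular genes tested 8 rose and 5 fell in PRA, and 7 rose and 7 fell in PRB, near the shares of all features (36.6% and 33.2% in PRA, 36.2% and 32.9% in PRB). Their median differences were 0.08 and -0.01. With PRB P4 replicate 3 left out, 7 rose and 6 fell in PRB. Beta-catenin (Ctnnb1), the most abundant at 292 to 328 FPKM in the group means, rose by 0.17 in PRA (adjusted p = 0.0234). That call was lost in 5 of 25 alternatives, and after quantile normalization the value was -0.03. The kinase genes Csnk1a1 and Csnk1e went opposite ways, up by 0.52 and 0.61 and down by 0.67 and 0.59 in PRA and PRB. Of the 4 TCF/LEF genes Tcf7l1 (-0.61 and -0.65) and Tcf7l2 (-0.44 and -0.35) fell in both strains. Tcf7, the most abundant of them at 40.1 to 46.7 FPKM in the group means, was not called in any comparison. Lef1 was lower in PRB than in PRA with P4 (-0.72, adjusted p = 0.0429), which was lost in 11 of 25 alternatives.

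Of 17 targets of the pathway tested other than Axin2, 2 rose and 5 fell in PRA (all features, 36.6% and 33.2%), and 2 rose and 10 fell in PRB (36.2% and 32.9%). Their medians were -0.06 and -0.46. Without PRB P4 replicate 3 there were 7 falls in PRA and 9 in PRB, with 2 rises in each. These counts were not tested against each other, and the list shares genes with those above (Notum, Znrf3, Rnf43, Tcf7, Lef1, Dkk1 and Apcdd1). Tnfrsf19, a receptor of the tumour necrosis factor family, fell from 43.6 ± 5.15 to 21.7 ± 1.75 FPKM in PRA and from 40.8 ± 3.12 to 13.1 ± 1.90 FPKM in PRB (SD, n = 4). Sp5 fell by 1.48 in PRB, with overlapping ranges, and its PRA difference was -0.39 (adjusted p = 0.414). Sox9 went the other way and rose, by 0.87 in PRA and 1.14 in PRB. The PRA call was lost in 3 of 25 alternatives, without PRA oil replicate 1 or 3 or PRA P4 replicate 2 (0.65 to 0.76, limma, adjusted p from 0.0531 to 0.0667). Myc also had higher means with P4. They were 80.8 ± 6.87 against 39.4 ± 5.30 FPKM in PRA, and 86.5 ± 13.7 against 46.0 ± 7.96 FPKM in PRB. Jun was not called in any comparison. Over all features 2.28% had a called difference of responses. In the lists it was called for 3 genes, Apcdd1 (-0.70, adjusted p = 0.0320), Tnfrsf19 (-0.60, adjusted p = 0.0455) and Amer1, a scaffold of the destruction complex (-0.41, adjusted p = 0.0290), each with the lower value in PRB. These calls were lost in 8, 14 and 9 of 24 alternatives.

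**Figure D4:**
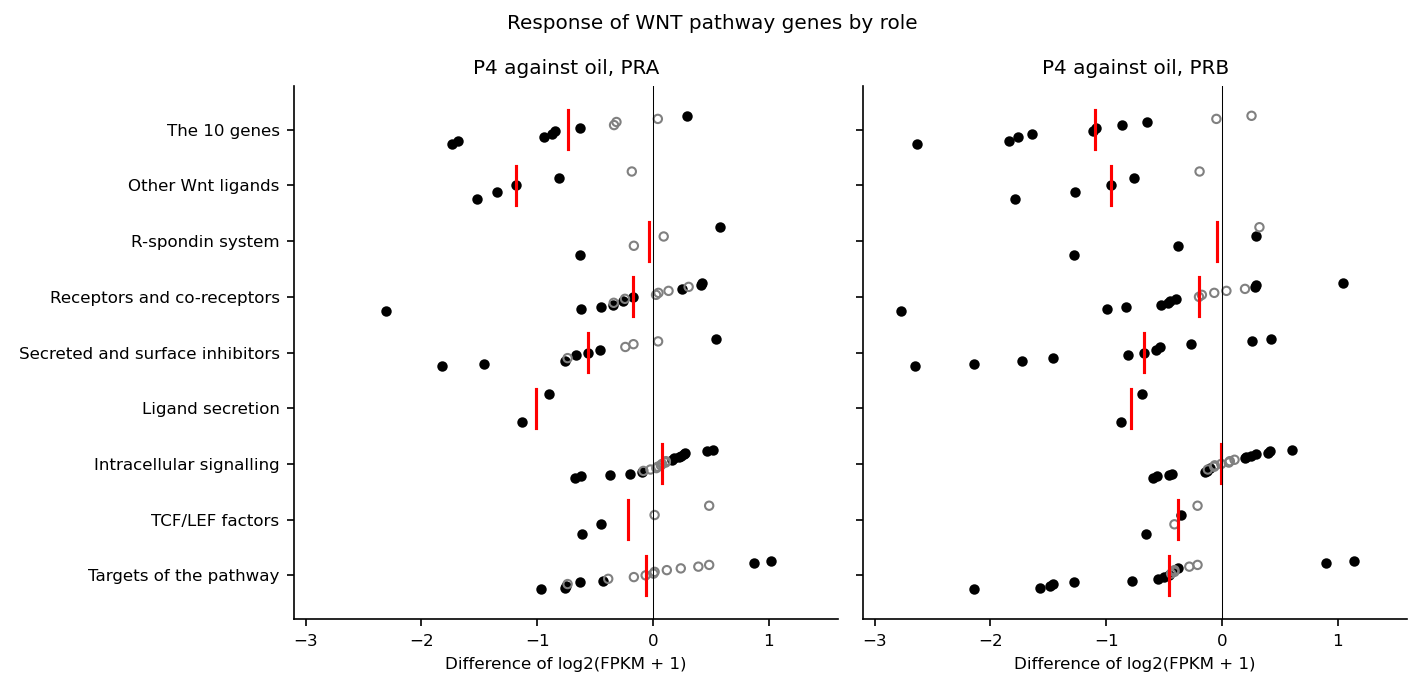
Difference of log2(FPKM + 1) between P4 and oil for the tested genes of each list, in PRA and PRB. Filled points are called, open points are not, and red lines are list medians. For the 10 genes the medians are -0.74 in PRA and -1.10 in PRB, and for the intracellular list they are 0.08 and -0.01.

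The patterns over the 16 libraries were also set beside those of other tested features, leaving out Riken clones, predicted genes, LOC and small RNA features. The measure was Pearson's r of log2(FPKM + 1), which here mostly reflects the 4 group means. Rspo3 was most like Slc22a3, an organic cation transporter (r = 0.994), Wnt7a like Osbpl3 (0.991) and Wnt16 like Apcdd1 (0.978). Rspo1 was most like Tmem98 (0.9748), Axin2 like Rara, a retinoic acid receptor (0.973), and Lgr5 like Arl4c (0.971), with Wnt7a next (0.969). Wnt4 was closest to Mrc2 (0.969), and Wnt5a and Wnt11 reached no more than 0.895 each, with Rpa1 and Emb. After the group means were removed, Wnt16 was again closest to Apcdd1 (0.858), and Rspo3 was closest to Mrvi1 and Hspb6 (0.965 and 0.962), both known from smooth muscle. Among the 10 genes themselves the deviations of Wnt7a and Lgr5 from their group means went together most closely (0.846), and those of Wnt4 and Wnt11 were the most opposed (-0.656). These are descriptions of 16 libraries that share depth and tissue makeup.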

How the data were processed

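FPKM values per feature were deposited by the authors for RNA-seq of whole uterus. TopHat2 2.0.4, Cufflinks 2.0.2, Cuffdiff and mm10 are named in the submitters' processing notes. Nothing used here states the annotation, the use of strand or a scaling between libraries. Of 31274 features, 7717 were 0 in every library. The spacing of low values implies 60.1 to 73.2 M fragments per library, so 1 FPKM of a 2 kb transcript rests on about 108 to 132 fragments.

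Log2(FPKM + 1) was fitted with limma 3.58.1 in R 4.3.3, with all 16 libraries, a mean for each of 4 groups, an intensity trend and no block. Features averaging 1 FPKM or more were tested, two-sided, with Benjamini-Hochberg adjustment over the 15408. The procedure was tested on simulated data with independent noise and far fewer changed features than were called here with P4. That run therefore does not give the error rates of these data. The labels name biological replicates but no litters or days, so p-values measure the spread between these samples.

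The genes and lists were chosen with earlier results of these data known. Named were the 10 genes, Pgr and, of each list, up to 6 features with the largest change among those called and the 2 most expressed. Myc and some cell type markers were named besides. For likeness, the 3 features of highest r were taken, and not all are printed. Alternatives were other pseudocounts (0.1 and 0.5), no filter, a mean of at least 5 FPKM, median-ratio scaling, quantile normalization, no trend, the libraries of a contrast alone, the replicate block and leaving out each library. Motifs and tables were computed in Python 3.11.15.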

Additional observations from a re-analysis of the deposited data

Results flagged for a closer look

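The lowest PRB oil library for Lgr5 (replicate 2, 19.4 FPKM) lay apart from the other 3, which lay within 23.6 to 24.1 FPKM. It was the only sample set apart in this way among 40 sets of 4 libraries (10 genes in 4 groups), and chance alone sets apart about 1 set in 20.

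The response to P4 differed between the strains by a test of the difference itself for 4 of the genes named. The difference (PRB minus PRA, log2 scale) was -1.21 for Wnt16, -0.70 for Apcdd1, -0.60 for Tnfrsf19 and -0.41 for Amer1. Over all features tested 2.28% had such a call, and the list genes were named partly because they were called. Wnt16 kept its call in all 24 alternatives, whereas Apcdd1, Tnfrsf19 and Amer1 lost theirs in 8, 14 and 9 of 24.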

How the results depend on the processing

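Of the 22 called results of the 10 genes, 18 stayed called in all alternatives run and none changed sign. The 4 exceptions (Wnt5a in PRA, Wnt7b in PRB, Wnt4 and Wnt7b between strains with P4) are given above. Of the 28 results that were not called, 26 stayed so, and 29 of 688 alternative values changed sign. After quantile normalization, signs turned for Pgr in PRA (-0.054), Ctnnb1 in PRA (-0.028) and Sfrp2 in PRB (-0.039), and the number of the 10 genes called higher in PRA was 0. Leaving out 1 library at a time gave 1 to 2 of the 10 genes called lower in the difference of the responses, the higher number without PRA P4 replicate 3. It also turned the sign of uncalled values, whose ranges were -0.085 to 0.20 for Wnt7b in PRA and -0.13 to 0.044 for Wnt5a in PRB. Between strains with oil they were -0.078 to 0.18 for Wnt4, -0.12 to 0.054 for Wnt5a, -0.20 to 0.0091 for Wnt7a, -0.082 to 0.22 for Wnt7b, -0.20 to 0.059 for Wnt11 and -0.020 to 0.13 for Rspo1. Between strains with P4 they were -0.34 to 0.038 for Rspo3 and -0.25 to 0.014 for Axin2, and in the difference of the responses -0.037 to 0.15 for Rspo1 and -0.18 to 0.20 for Rspo3. The cause was not tested. At a mean of at least 5 FPKM, Wnt7b was not tested.

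Over all features tested, equal replicate numbers paired libraries weakly at most. The median correlation of their deviations ran from -0.022 to 0.0856, and 4 of 16 libraries correlated best with their own number. For replicate 4 all 6 pairs were positive (0.0413 to 0.312). Among the 10 genes, Wnt11 followed the number, with replicate 1 highest and replicate 4 lowest in every group. With the replicate block 10798, 10705, 19, 2569 and 467 features were called (P4 in PRA, P4 in PRB, strains with oil, strains with P4, difference of responses), against 10760, 10647, 18, 2471 and 352 without it, and no call of the 10 genes changed. Between strains with oil, the count of 18 was 33 with no filter and 6 when only the 8 oil libraries were fitted, and leaving out 1 library gave 8 to 29. Between strains with P4, the count of 2471 was 1640 with the libraries of the contrast alone, 1548 without PRA P4 replicate 2 and 1412 without PRA P4 replicate 4. For the difference of responses, leaving out 1 library took the count of 352 to as low as 155 (without PRA P4 replicate 4).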
